A study of Homo sapiens with 15 samples.

Results

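Messenger RNA of Caco-2 monolayers kept for 24 h with a dishwasher rinse aid diluted 1:10000 was compared with that of monolayers left unexposed. Caco-2 is a human colorectal carcinoma line that forms a sheet of enterocyte-like cells. Per the titles of the samples, 5 libraries came from cells given rinse aid at 1:10000 and 5 from unexposed controls, so the comparison uses 10 of the 15 samples. The other 5, exposed at 1:40000, a solution 4 times weaker, were used as a second dilution and in the joint fit of all 15 libraries. All groups are the same cell line with no genetic change named in the labels. The labels do not say what the rinse aid contained, what the controls received in its place, or whether each library is its own culture. The spread behind the p-values is therefore that among these libraries, which may be technical. The question, as far as the title of the series gives it, is what such a product does to gut epithelial cells.

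The control counts came from RNA STAR and the rinse aid counts from HISAT2, per the file headers, with gene models that differed as well, so aligner, annotation and exposure cannot be told apart in the comparison with control. The text therefore rests on a subset of genes chosen from annotation alone, called clean here. A clean gene is protein-coding in GENCODE 29 and shares no exon with another gene. No pseudogene bears its symbol followed by P, with or without a number. It has the same gene version in both sets of files and no transcript or copy outside the primary assembly. Pseudogenes named in another way were not searched for, so some clean genes may have one. Of 19853 protein-coding genes in both sets of files, 8241 were clean, and 4239 of these passed the filter on low counts. A gene could pass through a single group, so a gene near 0 in the controls could enter by being higher at 1:10000. Genes were also counted as near absent in 1 set of files when their level in control was 32-fold or more away from that at both dilutions, with 2 CPM (counts scaled to a common library size) or more on the higher side. In the rinse aid files 143 tested genes were near absent, 0 of them clean. In the control files 127 were near absent, 1 of them clean, MTRNR2L10, which is given no further value here. The contrast between the dilutions has 1 aligner and 1 set of gene models. Its counts are given for the lists, and its values for the named genes that were called against control but not between the dilutions. It shares the 1:10000 libraries with the comparison with control.

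An intestinal epithelial cell that meets an irritant can answer along several known routes. The integrated stress response halts most protein synthesis through phosphorylation of the initiation factor eIF2 and favours translation of ATF4, a transcription factor that switches on amino acid transporters, amino acid synthesis and transfer RNA synthetases. Growth factor and mechanical signals act through the ERK kinases and the coactivator YAP on immediate early genes, on growth factors of the EGF family and on feedback inhibitors. NF-kB factors drive chemokines and other inflammatory mediators. The differentiated enterocyte is known for its brush border, its lipoprotein export and the transcription factors CDX2 and HNF4A that keep its identity.

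Library totals ran from 4333226 to 14230853 counts in the controls and from 5489425 to 9555632 at 1:10000. At 1:40000 depth was far more uneven, from 2551839 counts in library 2 to 172092447 in library 1. Messenger RNA of the mitochondrial genome held 1.138 to 1.454% of control counts and 2.57 to 3.321% of those at 1:10000, and its ribosomal RNA 0.216 to 0.349% and 3.112 to 3.833%. Of 12 epithelial and enterocyte markers, 11 averaged over 1 CPM in both groups. KRT20 did not pass the filter on low counts and was at 0 in every library of both dilutions, so exposure and aligner cannot be told apart for it. Their summed level, led by KRT8, was 9530 to 11200 CPM in the controls and 11300 to 13300 CPM at 1:10000. The members did not move together. KRT8 and KRT18, both outside the clean subset, averaged 4080 and 2380 CPM in the controls and 5440 and 3980 CPM at 1:10000. HNF4A and VIL1, also outside it, averaged 572 and 760 CPM in the controls and 217 and 474 CPM at 1:10000. CDX2, FABP1 and SI, described below, were lower as well. The summed leukocyte markers stood at 15.1 to 22.6 and 10.2 to 13.2 CPM, with PTPRC at 0 in both groups, and the fibroblast markers at 179 to 195 and 91.9 to 113 CPM, with DCN, THY1, FAP, ACTA2 and POSTN at 0. Endothelial markers summed to 11.3 to 17.6 and 33.5 to 43.9 CPM, led by the junction protein ESAM, with KDR, TEK, CLDN5 and EMCN at 0 in both groups. The part of these differences in the results below was not tested.

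Within each group, libraries 1 and 2 stood apart from libraries 3 to 5. The first principal component of the deviations from the group means, over 7968 genes with a mean of at least 4 on the log2 CPM scale, carried 32.3% of their variance. On it libraries 1 and 2 lay between -7.76 and -4.81 and libraries 3 to 5 between 2.28 and 5.6 in both compared groups. Nothing in the labels says what sets them apart. Since both sets hold both groups, the comparison was repeated within each, and 3002 of the 3030 clean genes called with all libraries had the same sign in both sets and 2300 passed in each set alone. Both sets are parts of the libraries that gave the 3030 calls, so agreement in sign was largely fixed in advance and is not separate support. This split was made after the data had been seen.

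At 1:10000 the called clean genes were split almost evenly between higher and lower. In edgeR's quasi-likelihood fit, with p-values adjusted by Benjamini-Hochberg over all genes, 3030 of 4239 clean genes (71.5%) passed at an adjusted p under 0.05, 1459 higher (34.4%) and 1571 lower (37.1%). Over all 13158 genes tested, 9344 (71%) passed. At least a 2-fold change was reached by 425 clean genes that rose and 446 that fell. All 5 libraries of one group lay beyond all 5 of the other for 2443 clean genes (57.6%). Each list below is read against these shares and a median log2 fold change of -0.02 over all clean genes. The lists were written with earlier results of these data known, so a count above these shares is a description and not independent support. In the contrast of 1:10000 with 1:40000, 2616 clean genes (61.7%) passed, 1225 higher (28.9%) and 1391 lower (32.8%) at 1:10000. In bulk samples, fewer cells that hold a transcript and less of it per cell cannot be told apart.

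Among the genes with the largest rises were PTGS2, ANKRD1 and ATF3. The 10 highest and 10 lowest genes given here were ranked among called clean genes that averaged 5 CPM or more across the 10 libraries and whose groups did not overlap. PTGS2, the inducible cyclooxygenase that makes the precursor of prostaglandins, stood at 21.8, 15.3, 30.4, 31.4 and 27.9 CPM in control libraries 1 to 5 and at 697, 730, 567, 628 and 653 CPM in 1:10000 libraries 1 to 5. The lowest exposed library was thus far above the highest control, and the log2 fold change was 4.69 ± 0.15 (± SE, adjusted p = 7.65e-14). In GENCODE 29 on GRCh38, PTGS2 (ENSG00000073756) lies on chromosome 1 from 186671791 to 186680427. ANKRD1, a muscle and epithelial ankyrin protein read out as a YAP target, stood at 27.4, 27.3, 41.7, 44.7 and 34.1 CPM in the controls and at 778, 686, 628, 639 and 629 CPM at 1:10000. ATF3, a transcription factor of the stress response, stood at 5.79, 5.87, 5.99, 5.92 and 8.27 CPM in the controls and at 126, 113, 90, 98.7 and 94.8 CPM at 1:10000. For ANKRD1 and ATF3 alike the groups did not overlap, and the log2 fold changes were 4.25 ± 0.14 and 4.04 ± 0.12. The log2 fold change of PTGS2 was 5.32 within libraries 1 and 2 and 4.37 within libraries 3 to 5. At 1:40000 the means were 63.8 ± 4.84 CPM for PTGS2, 97.7 ± 13 for ANKRD1 and 17.4 ± 1.94 for ATF3 (SD, n = 5), between the other 2 groups in each case.

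Several of the other genes with the largest rises had few counts in unexposed cells. KLHDC7B, a kelch-domain protein, had 2 counts over the 5 control libraries and 338 over the 5 exposed ones, a ratio of 207 (exact binomial 95% interval 56.9 to 1720, counting error only). NIBAN1, a protein induced by stress that is tied to translation control, stood at 0 to 0.685 CPM in the controls and at 16.4 to 28.5 CPM at 1:10000, and rose by 5.69 ± 0.26. S100P, a calcium-binding protein of secretory and tumour epithelia, went from 1.29 to 3.77 CPM across controls to 44.8 to 74.2 CPM across exposed libraries, and ALPG, a germ-cell type of alkaline phosphatase, from 1.55 to 2.66 CPM to 17.8 to 31.1 CPM. Both groups were fully separated for each of them. EMP1, an epithelial membrane protein, and RGCC, a regulator of the cell cycle, completed the 10 highest, with log2 fold changes of 3.71 ± 0.36 and 3.66 ± 0.15. EMP1 differed between exposed libraries, at 77.2 and 94.8 CPM in libraries 1 and 2 and at 35.1 to 53.4 CPM in libraries 3 to 5.

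**Figure D1:**
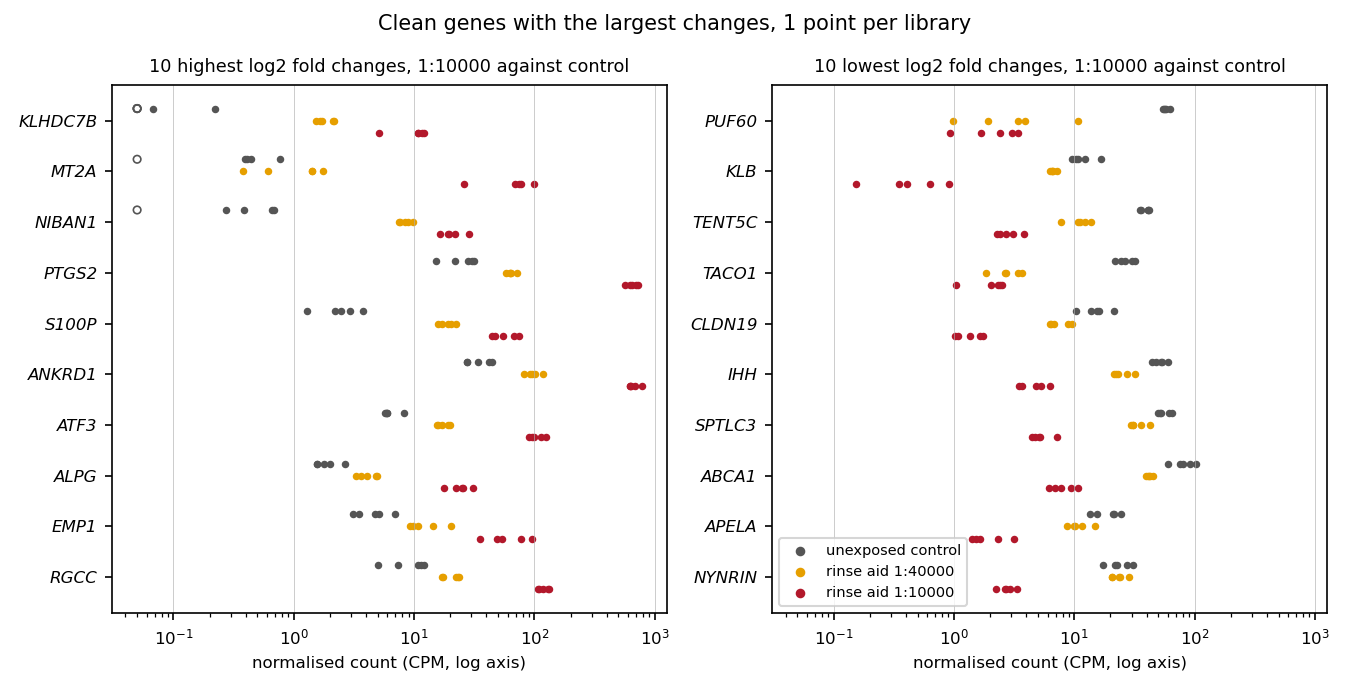
Normalised counts (CPM, log axis) of the 10 highest and the 10 lowest log2 fold changes at 1:10000 against control, among called clean genes that averaged 5 CPM or more across the 10 libraries and whose groups do not overlap, 1 point per library, with the 1:40000 libraries in orange and counts of 0 drawn as open circles at 0.05 CPM. The exposed and control points do not overlap for any of the 20 genes, and for PUF60 and TACO1 the points of both dilutions lie together.

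Genes listed as regulators of the integrated stress response rose as a group, in a list written with earlier results of these data known. All 7 clean members that were tested were higher, 0 lower, and their median was 2.08 on the log2 scale, against 34.4% of clean genes higher. TRIB3, a pseudokinase that restrains the ATF4 program, stood at 81.3, 81.8, 82.3, 74.4 and 68.7 CPM in control libraries 1 to 5 and at 560, 612, 573, 535 and 530 CPM at 1:10000. PPP1R15A, the phosphatase subunit that reverses eIF2 phosphorylation, stood at 30.1 to 40.5 CPM in the controls and at 280 to 351 CPM at 1:10000, a log2 fold change of 3.15 ± 0.15. CHAC1, which breaks down glutathione, stood at 3.43 to 6.43 CPM and at 13 to 21.7 CPM, and rose by 2.03 ± 0.16. ERN1, the endoplasmic reticulum stress sensor IRE1, rose by 2.08 ± 0.17, CEBPG, a partner of ATF4, by 1.09 ± 0.07, and STC2, a secreted glycoprotein, by 1.32 ± 0.06. Over all 17 tested members, clean or not, 14 were higher and 1 lower. Of those outside the clean subset, the central factor ATF4, whose counts are uncertain because it has pseudogenes, rose by 0.98 ± 0.06, and DDIT3, also called CHOP, which shares exon sequence with another gene, by 3.33 ± 0.15. CARHSP1, an RNA-binding protein, fell by 0.70 ± 0.07, while ATF5, a factor related to ATF4, and EIF2AK3, the eIF2 kinase PERK, were not called (0.06 ± 0.10 and 0.05 ± 0.08).

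The ATF4 program is read from promoters through an element bound by ATF4 with C/EBP factors, and the motif TGATGNAA (N any base, either strand) was searched in RefSeq promoters on GRCh38.p14. It was found in 3.67% of 27305 promoters from 250 bases before to 50 after the start, in 2 of 17 for the stress response regulators, 3 of 11 for the serine and one-carbon list, 3 of 18 for amino acid transporters and 6 of 16 for cytosolic synthetases. Counting only the 250 bases before the start, the shares were 3.19% of all promoters and 2 of 17, 3 of 11, 0 of 18 and 2 of 16. The 250 bases before the start are shown for 4 of the members with a match there, since their levels are described here. They run 5′ to 3′ along the gene, with the match in capitals, and come from chr15:40953221-40953470 (plus strand), chr1:212565157-212565406 (plus), chr6:150866236-150866485 (plus) and chr9:92293698-92293947 (minus).
CHAC1: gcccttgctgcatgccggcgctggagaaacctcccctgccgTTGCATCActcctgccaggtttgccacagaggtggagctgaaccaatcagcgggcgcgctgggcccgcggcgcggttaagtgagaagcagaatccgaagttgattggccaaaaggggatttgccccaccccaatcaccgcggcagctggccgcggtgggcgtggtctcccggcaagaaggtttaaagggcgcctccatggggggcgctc
ATF3: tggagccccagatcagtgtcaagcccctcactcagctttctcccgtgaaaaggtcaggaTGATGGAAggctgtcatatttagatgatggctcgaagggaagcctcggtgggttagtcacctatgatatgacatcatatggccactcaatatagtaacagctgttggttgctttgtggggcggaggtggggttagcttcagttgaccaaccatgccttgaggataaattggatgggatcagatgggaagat
MTHFD1L: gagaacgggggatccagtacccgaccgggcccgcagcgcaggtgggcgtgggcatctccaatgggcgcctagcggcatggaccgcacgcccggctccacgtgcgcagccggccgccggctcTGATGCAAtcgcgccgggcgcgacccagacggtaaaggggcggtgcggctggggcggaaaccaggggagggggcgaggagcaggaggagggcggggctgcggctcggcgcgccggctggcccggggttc
IARS1: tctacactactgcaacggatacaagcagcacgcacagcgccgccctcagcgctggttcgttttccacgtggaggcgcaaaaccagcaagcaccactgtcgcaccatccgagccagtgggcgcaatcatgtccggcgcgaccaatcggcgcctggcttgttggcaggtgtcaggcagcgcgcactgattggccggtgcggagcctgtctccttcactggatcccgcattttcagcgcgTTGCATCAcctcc
A match is a string of letters and not evidence of binding.

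Genes that supply amino acids and charge transfer RNAs were mostly higher. Of 10 clean amino acid transporters, 7 were higher and 2 lower (median 0.56), and all 4 clean cytosolic transfer RNA synthetases were higher (median 0.75). Over all tested members, clean or not, 11 of 19 transporters were higher and 4 lower (median 0.51). Of 20 cytosolic synthetases tested, 15 were higher and 4 lower (median 0.49). SARS1, the seryl synthetase, stood at 81.5, 81.8, 76.6, 76.3 and 81.9 CPM in the controls and at 214, 215, 209, 201 and 197 CPM at 1:10000. That is a log2 fold change of 1.38 ± 0.06, with an SD of 2.93 CPM in the controls and 7.71 CPM at 1:10000. TARS1, the threonyl synthetase, rose by 0.76 ± 0.06, IARS1, the isoleucyl synthetase whose promoter is shown above, by 0.75 ± 0.06 and EPRS1, the glutamyl-prolyl synthetase, by 0.27 ± 0.05. SLC3A2, the heavy chain shared by several amino acid exchangers, stood at 281 to 408 CPM in the controls and at 1280 to 1330 CPM at 1:10000. SLC7A1, a carrier of arginine and lysine, rose from 145 ± 8.18 to 397 ± 37.3 CPM, while SLC36A1, the proton-coupled transporter of small amino acids, fell from 89.8 ± 13.5 to 25.5 ± 4.27 CPM (SD, n = 5).

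The enzymes behind serine, one-carbon units and cysteine moved in both directions, with 4 of 6 clean members higher and 2 lower (median 1.01). CTH, which makes cysteine from cystathionine, stood at 3.81 to 5.77 CPM in the controls and at 20.1 to 23.6 CPM at 1:10000, and rose by 2.27 ± 0.16. MTHFD1L, a mitochondrial enzyme of formate release, rose by 1.64 ± 0.08 and CBS, the enzyme before CTH, by 1.69 ± 0.27. PHGDH, the entry enzyme of serine synthesis, rose by 0.37 ± 0.07. GPT2, a mitochondrial alanine transaminase, fell from 194 ± 20.3 to 72.5 ± 3.95 CPM. Of 5 clean mitochondrial synthetases, 0 were higher and 1 was lower, LARS2 for leucine, at -1.35 ± 0.08, and a second passed as lower without control library 2.

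Other stress routes showed smaller or mixed changes. Clean chaperones and degradation factors of the endoplasmic reticulum had 2 of 6 higher and 3 lower (median -0.1), with HERPUD1, a degradation factor, at 0.65 ± 0.06 and the disulfide isomerase PDIA4 at -0.68 ± 0.05. The lower count was 1 without 1:10000 library 1 or 2 or control library 2 or 3, and the call of MANF (-0.23 ± 0.1, adjusted p = 0.0407) ended without each of these and without 1:10000 library 3. Heat shock proteins had 3 of 4 higher, led by the small heat shock protein HSPB8, which stood at 9.59 to 20.9 CPM in the controls and 50.2 to 56.2 CPM at 1:10000. HSP90AB1, the constitutive HSP90, rose by 0.39 ± 0.07, with 0.59 within libraries 1 and 2 and 0.26 within libraries 3 to 5. Of 5 clean targets of the oxidative stress factor NRF2, 3 were higher and 1 lower, the lower call being lost without 1:10000 library 1 or 2 or control library 3. ME1, the NADPH-producing malic enzyme, rose by 1.03 ± 0.07 and GCLM, a subunit of glutathione synthesis, by 0.80 ± 0.13.

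Metallothioneins, small proteins that bind zinc and copper, included the highest rises among clean members of any list, in MT1E and MT2A. Both stayed under 1 CPM in every control library and passed the filter on low counts through the 1:10000 group. MT2A stood at 0, 0.392, 0.444, 0.408 and 0.775 CPM in control libraries 1 to 5 and at 99.8, 26.0, 69, 76.7 and 74.9 CPM in 1:10000 libraries 1 to 5, a log2 fold change of 7.34 ± 0.53 (adjusted p = 2.85e-08) that was 7.93 within libraries 1 and 2. Exposed library 2 was the lowest and still far above the highest control. MT1E had 1 count over the controls and 344 over the exposed libraries, a ratio of 422 (exact binomial 95% interval 75.2 to 16700, counting error only), with exposed library 2 again the lowest at 2.24 CPM. Its mean over the 10 libraries is under the 5 CPM set for the ranking. MT1F rose by 2.36 ± 0.22. At 1:40000 MT2A averaged 1.12 ± 0.585 CPM and was not called against control (log2 fold change 1.21, adjusted p = 0.282). It was higher at 1:10000 than at 1:40000 by 6.13 ± 0.43. The zinc carriers of the same list did not follow, with SLC39A10, a zinc importer, at -0.56 ± 0.08 and SLC30A1, the zinc exporter, at -0.14 and not called. The list had 3 of 6 clean members higher and 2 lower, or 1 lower without 1:10000 library 1 or 4 or control library 3. Part of the higher count follows from the filter. With no filter on low counts, 5 of 9 clean members were higher and 1 lower.

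A loose form of the core of the metal response element, TGCNCNC, was found in 55.2% of all promoters and in 3 of 5 on the list. The share on the list is close to that of all promoters for this string, and a stricter form was not searched. The 250 bases before the start of MT2A, from chr16:56608334-56608583 (plus strand), are shown because the levels of this gene are described above. The window holds 7 matches, in capitals, none overlapping another.
MT2A: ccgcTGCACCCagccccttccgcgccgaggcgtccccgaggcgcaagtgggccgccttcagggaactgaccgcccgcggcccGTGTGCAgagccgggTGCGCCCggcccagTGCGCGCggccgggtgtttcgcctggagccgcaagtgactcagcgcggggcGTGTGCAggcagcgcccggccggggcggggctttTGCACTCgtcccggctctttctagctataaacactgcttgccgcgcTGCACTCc

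Immediate early transcription factors were higher in 8 of 9 clean members and lower in 1 (median 1.15). MAFF, a small MAF protein, stood at 2.44 to 6.36 CPM in the controls and at 34.4 to 56.3 CPM at 1:10000, and rose by 3.27 ± 0.19. MYC, a driver of growth, stood at 41.3 to 74.3 CPM and at 159 to 211 CPM, and rose by 1.76 ± 0.14. FOS and EGR1, which respond within minutes to growth factor signals, rose by 1.84 ± 0.39 and 1.22 ± 0.37, with overlapping groups for both. The member that fell, FOSL2, stood at -0.15 ± 0.06 (adjusted p = 0.0343), a call that ended without 1:10000 library 1, 2 or 5 or control library 1 or 2. The AP-1 site TGANTCA was in 7.76% of all promoters and in 1 of 12 on this list. Of 6 clean Krueppel-like factors, 5 were higher and 0 lower (median 1.3), among them KLF6 at 2.00 ± 0.08 and KLF5, which marks crypt and stress states of the gut epithelium, at 1.32 ± 0.15.

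Inhibitors that the ERK pathway induces against itself rose with these factors, in 7 of 9 clean members with 0 lower (median 1.01). DUSP1, a phosphatase of MAP kinases, stood at 9.59, 13.8, 9.32, 12.8 and 12.8 CPM in the controls and at 109, 99.9, 73.0, 74.6 and 75.4 CPM at 1:10000. All exposed libraries lay above all controls, and libraries 1 and 2 were the highest of the exposed ones. DUSP4 rose by 2.98 ± 0.20, and the Sprouty and Spred inhibitors SPRY1 and SPRED1 by 2.06 ± 0.14 and 1.82 ± 0.10. Of 4 clean genes of the EGF receptor family and its ligands, 3 were higher and 1 lower (median 1.98). Over all 9 tested members, clean or not, 6 were higher and 3 lower (median 0.33). EREG, or epiregulin, stood at 46.9, 33.2, 26.2, 39.0 and 38.6 CPM in the controls and at 485, 382, 232, 269 and 247 CPM at 1:10000, AREG, or amphiregulin, at 101 to 115 and 434 to 735 CPM, and HBEGF rose by 1.62 ± 0.17. EGF itself fell by 1.30 ± 0.36, at a mean of 1.80 CPM in the controls. EPHA2, a receptor tyrosine kinase, rose by 2.58 ± 0.11.

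Targets of YAP and TEAD, the pair that reads cell tension and loss of contact, were higher in 7 of 8 clean members with 0 lower (median 0.8). CCN1, a matrix protein, stood at 33.7 to 41.9 CPM in the controls and at 176 to 265 CPM at 1:10000, and rose by 2.56 ± 0.13. NUAK2, a kinase of the same program, rose by 1.77 ± 0.11, MYOF, a ferlin of membrane repair, by 0.62 ± 0.06 and TEAD1 itself by 0.99 ± 0.09. LATS2, the kinase that restrains YAP, was not called (-0.1). EDN1, the vasoactive peptide endothelin, rose by 3.19 ± 0.17.

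The NF-kB system was raised at its non-canonical members and inhibitors, with 6 of 8 clean members higher and 1 lower (median 1.04). RELB stood at 2.80 to 5.29 CPM in the controls and at 21.9 to 36.6 CPM at 1:10000, and NFKB2, its partner, at 21.0 to 26.2 and 113 to 138 CPM. Neither overlapped, and the log2 fold changes were 2.78 ± 0.18 and 2.39 ± 0.11. The inhibitor NFKBIA and the apoptosis inhibitor BIRC3 rose by 1.03 ± 0.14 and 2.38 ± 0.20. NFKB1 was not called (0.06 ± 0.08). NFKBIZ, an atypical nuclear inhibitor that also acts as a coactivator, went the other way and fell from 13.1 ± 1.70 to 1.93 ± 0.823 CPM.

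Of 22 cytokines and chemokines listed, 9 passed the filter, and all 6 clean ones were higher (median 1.75). Part of this count follows from the filter. CXCL3 and IL11 averaged under 1 CPM in the controls and at 1:40000, and passed through the 1:10000 group. With a mean of at least 5 CPM required instead, 3 clean members were left, all 3 higher. CCL20, which draws dendritic cells and lymphocytes to the gut lining, stood at 0.799, 1.57, 0.222, 1.63 and 1.29 CPM in the controls and at 18.3, 15.1, 9.96, 14.6 and 15.5 CPM at 1:10000. IL18, an inflammasome substrate that epithelia hold in store, stood at 28.6 to 39.9 and 72.5 to 102 CPM. IL11, a cytokine of repair and fibrosis, and CXCL3, a neutrophil chemokine, rose by 2.17 ± 0.34 and 3.20 ± 0.34 from means under 1 CPM. The summed leukocyte markers, given above, were not higher in exposed libraries. Of 12 secreted stress hormones listed, 8 passed the filter, and all 6 clean ones were higher (median 2.01). INHBE, an activin subunit, rose by 3.33 ± 0.24. It averaged under 1 CPM in the controls and passed the filter through the rinse aid groups. ADM2, an adrenomedullin, rose by 1.69 ± 0.21 (1.02 within libraries 1 and 2, 2.10 within libraries 3 to 5). GDF15, the stress hormone of sickness and appetite loss, is outside the clean subset because its gene version differed between the files, and rose by 3.73 ± 0.16.

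Prostaglandin genes beyond PTGS2 moved in both directions, with 4 of 8 clean members higher and 2 lower (median 0.34). PTGES, which makes prostaglandin E from the PTGS2 product, stood at 6.95 to 9.30 CPM in the controls and 12.1 to 15.5 CPM at 1:10000, and rose by 0.81 ± 0.13. SLCO2A1, which takes prostaglandins up into cells, rose by 2.48 ± 0.34 from a mean of 0.497 CPM. HPGD, which breaks prostaglandins down, was not called (0.06). PLA2G2A, a secreted phospholipase, fell by 1.26 ± 0.20.

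**Figure D2:**
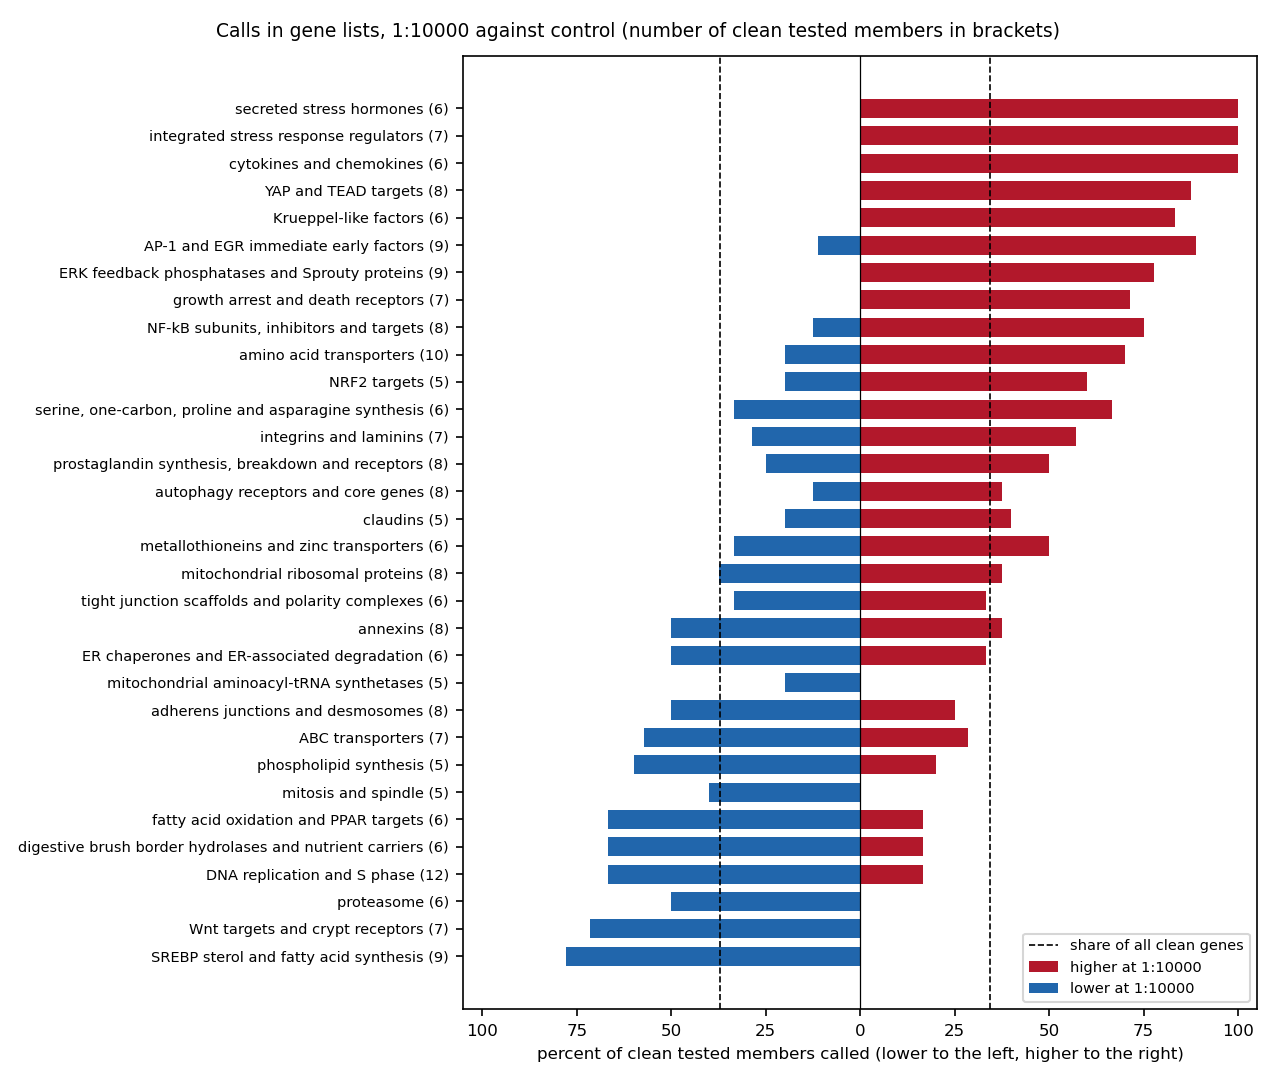
Percent of clean tested members called higher (to the right) and lower (to the left) at 1:10000 against control for the 32 lists with at least 5 such members, whose number is in brackets. Dashed lines give the shares over all clean genes, 34.4% higher and 37.1% lower; stress hormone, stress response and cytokine lists extend farthest to the right and SREBP and Wnt lists farthest to the left.

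For junctions and cytoskeleton, which carry the barrier function in the title of the series, the clean members moved in both directions. Claudins, the sealing strands of tight junctions, had 2 of 5 higher and 1 lower on the list (median 0.01), with a second lower call without 1:10000 library 2. CLDN1, a sealing claudin, stood at 98.5 to 142 CPM in the controls and 182 to 255 CPM at 1:10000, and rose by 0.90 ± 0.14, and CLDN4 rose by 0.35 ± 0.08 with overlapping groups. CLDN19, a claudin outside this list that is among the 10 lowest genes, stood at 16, 21.3, 10.4, 15.5 and 13.8 CPM in the controls and at 1.76, 1.02, 1.64, 1.37 and 1.09 CPM at 1:10000, and fell by 3.46 ± 0.22. Tight junction scaffolds and polarity proteins had 2 of 6 higher and 2 lower, or 1 higher without 1:10000 library 3 or control library 2, 4 or 5. LLGL2, a basolateral polarity protein, rose by 0.57 ± 0.09 and the scaffold MAGI3 fell by 0.74 ± 0.09. Of 8 clean adherens junction and desmosome genes, 2 were higher and 4 lower (median -0.16), with the plakin PPL at 0.54 ± 0.07, NECTIN3 at -0.67 ± 0.07 and CTNNB1, or beta-catenin, at -0.40 ± 0.06. Of 3 clean genes of the actin cytoskeleton and focal adhesions, 2 were higher and 1 lower (median 0.28), and over all 21 tested members, clean or not, 13 were higher and 5 lower. CAPG, an actin-capping protein, stood at 3.55 to 7.24 CPM in the controls and 7.76 to 12 CPM at 1:10000, and rose by 0.91 ± 0.18. PDLIM7, a scaffold of actin filaments, rose by 0.28 ± 0.10, a call that ended without 1:10000 library 4. MYL9, a myosin light chain, fell by 1.10 ± 0.09.

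Genes for matrix attachment and membrane repair held larger single changes. ITGA2, a collagen receptor, stood at 51 to 61.1 CPM in the controls and at 90 to 130 CPM at 1:10000, and rose by 1.00 ± 0.08. ITGB4, the integrin chain of hemidesmosomes, rose by 0.87 ± 0.10, and LAMA3, a laminin chain, fell by 0.76 ± 0.08. In all 4 of 7 clean integrins and laminins were higher and 2 lower. ANXA1, an annexin that binds calcium and damaged membrane, stood at 4.79, 4.01, 4.22, 5.24 and 6.46 CPM in the controls and at 40.4, 35.8, 35.7, 32 and 38.6 CPM at 1:10000, and rose by 2.87 ± 0.13. Other annexins moved less or fell, so that 3 of 8 clean ones were higher and 4 lower, with ANXA3 at 0.81 ± 0.07, ANXA5 at 0.37 ± 0.05, ANXA9 at -0.99 ± 0.09 and ANXA13, an annexin of the gut epithelium, at -2.44 ± 0.56 from a mean of 2.57 CPM. CHMP2B, a subunit of the ESCRT-III complex that pinches off damaged membrane, rose by 0.82 ± 0.08 and was the 1 of 3 clean members that did. KRT80, a keratin, rose by 3.45 ± 0.42 from a mean of 0.260 CPM.

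Of 4 clean transcription factors of intestinal identity, 2 were lower and 1, KLF5, higher, and digestive genes were mostly lower. CDX2 stood at 181, 191, 169, 149 and 169 CPM in the controls and at 53.6, 57.4, 68.4, 70.3 and 65.3 CPM at 1:10000, and fell by 1.45 ± 0.08 (adjusted p = 1.95e-14). CDX2 (ENSG00000165556) lies on chromosome 13 from 27962137 to 27971139. ISX, a homeobox factor that restrains vitamin A uptake, fell by 1.78 ± 0.19, and by 2.37 within libraries 1 and 2. HNF4A, whose gene version differed between the files, fell by 1.40 ± 0.07. Brush border hydrolases and nutrient carriers had 1 of 6 higher and 4 lower (median -0.68). SI, or sucrase-isomaltase, stood at 29, 25.2, 9.32, 18.0 and 12.0 CPM in the controls and at 5.62, 6.10, 0.631, 2.75 and 4.50 CPM at 1:10000, with libraries 1 and 2 the highest in both groups and no overlap between groups. SI was also low at 1:40000, at a mean of 3.77 CPM, with a log2 fold change of -2.36 against control there and 0.06 ± 0.45 between the dilutions (adjusted p = 0.927). Between the dilutions, 1 of the 6 was higher and 3 lower at 1:10000. SLC2A5, the fructose carrier, fell by 2.24 ± 0.22. The 3 clean cytoskeletal genes of the brush border differed, with EPS8 at 0.77 ± 0.13, BAIAP2L2 at 0.87 ± 0.14 and USH1C at -0.39 ± 0.08. Over all 15 tested members of that list, clean or not, 5 were higher and 8 lower (median -0.58). IHH, the hedgehog ligand by which enterocytes signal to the tissue below, is among the 10 lowest and stood at 44.2 to 59.7 CPM in the controls and 3.46 to 6.25 CPM at 1:10000.

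Genes of lipid handling and export were lower for most clean members, with 2 of 3 apolipoproteins and 2 of 3 genes of triglyceride synthesis lower. ABCA1, which loads cholesterol onto lipoproteins, stood at 103, 91.8, 59.9, 80.0 and 75.8 CPM in the controls and at 10.8, 9.36, 6.18, 7.78 and 6.98 CPM at 1:10000, and fell by 3.32 ± 0.14. SPTLC3, a subunit of the first enzyme of sphingolipid synthesis, fell from 56.0 ± 6.89 to 5.32 ± 1.07 CPM. FABP1, the fatty acid binding protein of enterocytes and liver, fell by 2.26 ± 0.13, CPT1A, the gate to mitochondrial fatty acid oxidation, by 0.84 ± 0.15, and APOC3, an apolipoprotein, by 1.46 ± 0.16. Over the list of fatty acid oxidation and PPAR targets, 1 of 6 clean members was higher, or 0 without control library 5, and 4 were lower (median -0.63). PLIN2, the coat of lipid droplets, rose by 0.55 ± 0.07, while GPAM, which starts glycerolipid synthesis, fell by 0.91 ± 0.07. KLB, the co-receptor through which FGF19 and FGF21 signal, stood at 9.56 to 16.8 CPM in the controls and 0.155 to 0.915 CPM at 1:10000, and fell by 4.61 ± 0.26, or by 5.24 within libraries 1 and 2. FGF19 itself, made by enterocytes, rose by 2.77 ± 0.42 from a mean of 0.32 CPM. Among genes of phospholipid synthesis 1 of 5 was higher and 3 lower, with the CDP-diacylglycerol synthases CDS1 and CDS2 at 0.55 ± 0.08 and -0.22 ± 0.06.

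Sterol and fatty acid synthesis under the factor SREBP was lower in 7 of 9 clean members and higher in 0 (median -0.39). With the replicate block, with a term for libraries 1 and 2, or with only these libraries, 1 member was higher, the sterol oxidase MSMO1, which was not called in the fit of all libraries (0.18 ± 0.12). FASN, which builds long-chain fatty acids, had 568, 588, 627, 567 and 537 CPM in the controls and 358, 344, 363, 362 and 362 CPM at 1:10000, and fell by 0.69 ± 0.06. Against control, the weaker dilution moved several of these genes the other way. At 1:40000 FASN averaged 683 ± 50.6 CPM (log2 fold change 0.24, adjusted p = 0.00082), ELOVL6, a fatty acid elongase, stood at 0.41 against -0.85 at 1:10000, and MVD, a mevalonate pathway enzyme, at 0.55 against -0.39. All 3 passed in both comparisons, which share the control libraries. In the direct contrast of the dilutions, 0 of the 9 were higher and 6 lower at 1:10000, with ELOVL6 at -1.26 ± 0.10 and MVD at -0.94 ± 0.07.

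Drug and lipid transporters of the ABC family had 2 of 7 clean members higher, or 1 without 1:10000 library 3 or control library 1, 2 or 4, and 4 lower (median -0.7). ABCB1, the P-glycoprotein that pumps drugs out of enterocytes, stood at 219, 220, 241, 232 and 224 CPM in the controls and at 108, 81.2, 96.2, 98.7 and 99.9 CPM at 1:10000, and fell by 1.23 ± 0.08. ABCG2, another efflux pump of the brush border, went the opposite way and rose from 23.3 ± 2.29 to 68.7 ± 4.01 CPM.

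Genes of DNA replication were mostly lower and genes of growth arrest mostly higher. Of 12 clean genes of DNA replication, 8 were lower and 2 higher (median -0.51). The higher count was 1 without 1:10000 library 3, 4 or 5 or control library 1, 2 or 3. MCM3, a subunit of the replicative helicase, stood at 202 to 259 CPM in the controls and 114 to 126 CPM at 1:10000, CCNE1, the cyclin of S phase entry, fell by 0.89 ± 0.12 and CDT1, a licensing factor, rose by 0.49 ± 0.07. Mitosis genes had 2 of 5 lower and 0 higher, with the cyclin CCNB1 at -0.49 ± 0.07 and the kinesin KIF11 at -0.56 ± 0.07. Wnt targets and crypt receptors had 5 of 7 lower (median -0.81) and 0 higher, or 2 higher without control library 1, with ZNRF3, which removes Wnt receptors, at -1.23 ± 0.10 and the crypt receptor EPHB3 at -1.08 ± 0.19. Growth arrest and death genes had 5 of 7 higher and 0 lower (median 0.84). PMAIP1, the pro-death protein NOXA, stood at 0.775 to 1.16 CPM in the controls and at 5.68 to 13.2 CPM at 1:10000, GADD45B, a stress and arrest factor, rose by 2.46 ± 0.19, and CDKN1B, an inhibitor of cyclin kinases, by 0.84 ± 0.09. SAT1, which acetylates polyamines for export, stood at 19.3 to 25.6 CPM and 197 to 357 CPM, and UPP1, which splits uridine, at 7.15 to 9.76 CPM and 60.7 to 70.8 CPM.

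Among basic cell functions, proteasome subunits had 0 of 6 higher and 3 lower (median -0.19), led by PSMD3 at -0.71 ± 0.08, and mitochondrial ribosomal proteins 3 higher and 3 lower of 8 (median 0). Autophagy genes had 3 of 8 higher and 1 lower, the lower call being lost without 1:10000 library 2 or 4 or control library 4, with the kinase ULK2 at 2.24 ± 0.25 from a mean of 1.30 CPM, the cargo receptor CALCOCO2 at 0.63 ± 0.07 and the kinase ULK1 at 0.45 ± 0.12. In glucose handling 2 of 4 were higher and 2 lower. ENO2, an enolase, rose by 1.64 ± 0.16 and TXNIP, a brake on glucose uptake, fell by 1.60 ± 0.26. TXNIP was lower at 1:40000 as well, at -1.77 against control, and was not called between the dilutions (0.16 ± 0.27, adjusted p = 0.634).

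The remaining genes among the 10 lowest had no common role. TENT5C, a poly(A) polymerase, stood at 35.2 to 42.2 CPM in the controls and 2.27 to 3.81 CPM at 1:10000, and APELA, a peptide hormone, at 13.6 to 24.4 and 1.42 to 3.15 CPM. NYNRIN stood at 27.6, 30.6, 21.7, 22.8 and 17.4 CPM in the controls and at 2.69, 2.24, 2.9, 3.36 and 2.64 CPM at 1:10000, without overlap, and averaged 23.4 ± 3.15 CPM at 1:40000. PUF60, a splicing factor, stood at 54.7 to 62.0 CPM in the controls and 0.936 to 3.41 CPM at 1:10000, and TACO1, a translation activator of a mitochondrial oxidase subunit, at 22.0 to 31.7 and 1.05 to 2.52 CPM. Both were also low at 1:40000, at 4.20 ± 3.86 and 2.87 ± 0.723 CPM. Neither was called in the contrast between the dilutions (-0.65 ± 0.73, adjusted p = 0.476, and -0.39 ± 0.25, adjusted p = 0.192). Several genes named above had the same pattern, called against control at both dilutions but not between them. Those that were lower against control were SI, TXNIP, CCNB1 (-0.06 ± 0.07 between the dilutions, adjusted p = 0.446), PSMD3 (-0.14 ± 0.08, adjusted p = 0.119) and MANF (0.03 ± 0.10, adjusted p = 0.799). Those that were higher were CLDN1 (0.30 ± 0.14, adjusted p = 0.08), CAPG (0.24 ± 0.17, adjusted p = 0.226), CBS (0.24 ± 0.23, adjusted p = 0.393), SLCO2A1 (-0.21 ± 0.24, adjusted p = 0.485), CDT1 (-0.12 ± 0.07, adjusted p = 0.119), ULK1 (-0.16 ± 0.12, adjusted p = 0.246), EPRS1 (-0.11 ± 0.05, adjusted p = 0.0697), ATF4 (0.09 ± 0.06, adjusted p = 0.19), SARS1, CHAC1 and ADM2. Since control and rinse aid files came from different aligners, exposure and aligner cannot be told apart for genes with this pattern. FOSL2 (-0.12 ± 0.06, adjusted p = 0.107) and PDLIM7 (0.07 ± 0.10, adjusted p = 0.539) were not called between the dilutions either.

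The lists of genes that rose against control were also read in the contrast of the 2 dilutions. Against 1:40000, SARS1 stood at -0.03 ± 0.06, CHAC1 at 0.12 ± 0.13 and ADM2 at -0.02 ± 0.18, none of them called, and PHGDH, IARS1, STC2 and INHBE were lower at 1:10000, at -0.53 ± 0.07, -0.35 ± 0.06, -0.20 ± 0.06 and -0.69 ± 0.16. INHBE averaged 0.749 ± 0.344 CPM in the controls, 12.7 ± 1.34 at 1:40000 and 7.94 ± 1.73 at 1:10000. For the list of stress response regulators, 5 of 7 clean members were higher at 1:10000 than at 1:40000 and 1 lower, led by ATF3 at 2.59 ± 0.10 and PPP1R15A at 2.57 ± 0.15. Amino acid transporters had 4 of 10 higher and 3 lower, cytosolic synthetases 1 of 4 each way, and serine and one-carbon genes 2 of 6 each way. SLC3A2, TRIB3, CTH and TARS1 were higher at 1:10000, by 1.41 ± 0.08, 0.87 ± 0.08, 0.81 ± 0.13 and 0.42 ± 0.06. Of the signalling and inflammatory lists, 7 of 9 immediate early factors, 6 of 9 ERK feedback genes, 7 of 8 YAP targets, 7 of 8 NF-kB genes and 6 of 6 cytokines were higher at the stronger dilution, with 1 NF-kB gene, NFKBIZ, lower, against 28.9% of clean genes higher. Of the 6 cytokines, CXCL3 and IL11 passed the filter through the 1:10000 group, as described above. CCL20 averaged 1.83 ± 0.366 CPM at 1:40000, where it was not called against control (adjusted p = 0.168), and was 3.07 ± 0.21 higher at 1:10000. DUSP1 and PTGS2 were 2.52 ± 0.13 and 3.35 ± 0.14 higher, and CDX2 was 1.61 ± 0.08 lower, at 1:10000 than at 1:40000, where CDX2 averaged 192 ± 9.69 CPM and was not called against control (adjusted p = 0.0672). These contrasts carry no difference in aligner. Whether any of these lists differs from another was not tested.

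**Figure D3:**
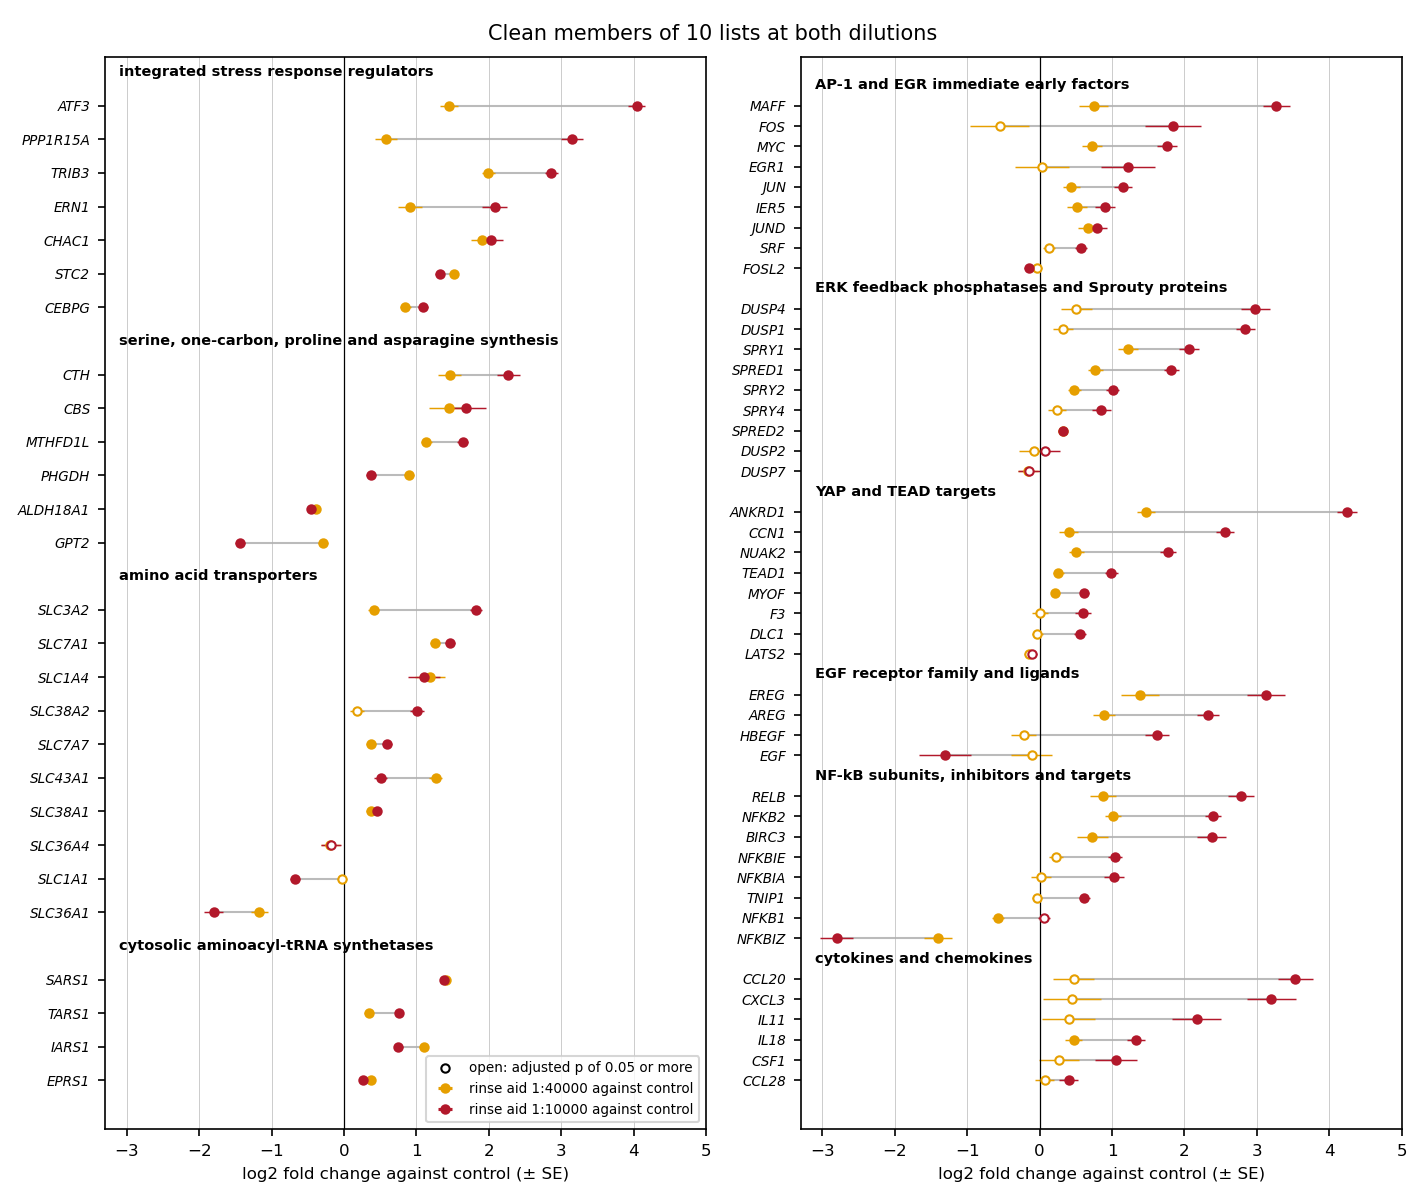
Log2 fold changes against control (± SE) at 1:40000 (orange) and 1:10000 (red) for the clean members of 10 lists, with open symbols where the adjusted p was 0.05 or more. In the left panel some pairs lie close together, as for SARS1 and CHAC1, and others lie apart, as for ATF3 and SLC3A2. In the right panel most red points lie to the right, as for DUSP1 and CCL20. Both dilutions share the control libraries.

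**Figure D4:**
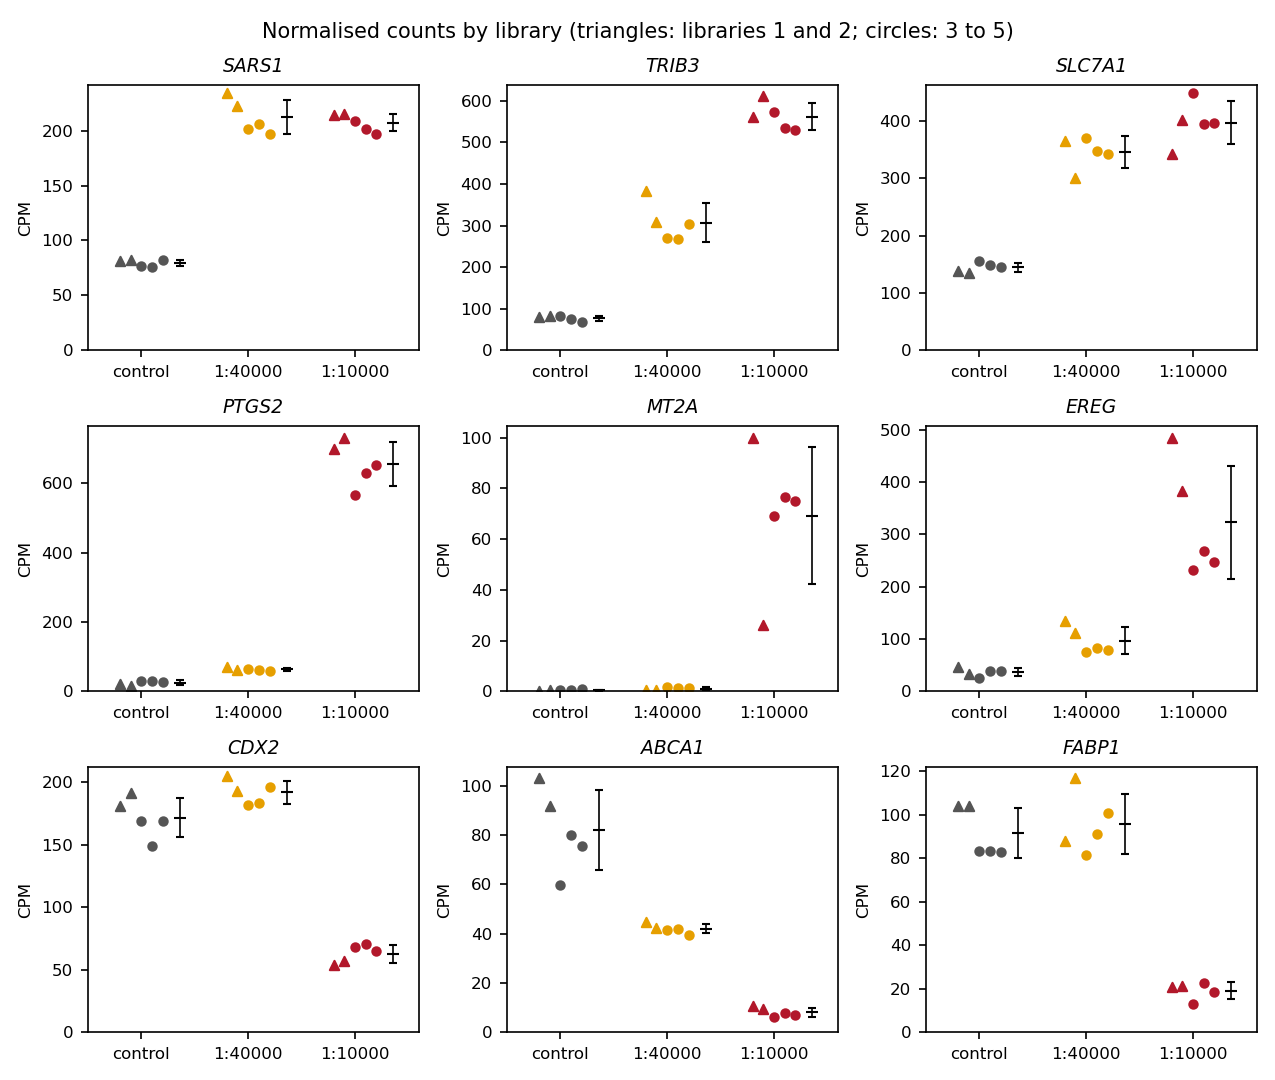
Normalised counts (CPM) of 9 genes in each library by group, with libraries 1 and 2 as triangles, libraries 3 to 5 as circles and the mean ± SD (n = 5) in black. SARS1 averages 207 CPM at 1:10000 and 212 CPM at 1:40000, PTGS2 and MT2A are highest at 1:10000, EREG lies highest in libraries 1 and 2 at 1:10000, and CDX2 and FABP1 are lowest at 1:10000.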

How the data were processed

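Polyadenylated RNA was sequenced from Caco-2 cells. The deposited files hold whole-number counts per Ensembl gene that were made on GRCh38 with featureCounts among the tools, per the submitters' processing notes, which also list STAR 2.7.9a, cutadapt and DESeq2 1.32.0. Per the file headers, control counts came from RNA STAR and rinse aid counts from HISAT2 alignments. Strand setting and annotation release are not given in the sources used here. Files were joined on gene identifiers without version (60557 shared). Counts of all 15 libraries were fitted with edgeR 4.0.16 in R 4.3.3 (TMM scaling, filterByExpr, robust quasi-likelihood, 3 group means), with Benjamini-Hochberg adjustment over 13158 genes. CPM use TMM library sizes, and the SE of a log2 fold change is its size over the square root of F. limma 3.58.1 and DESeq2 1.42.0 served as alternatives, beside other scalings, filters, left-out libraries and a replicate block. The procedure was tested on simulated data. Libraries of one group differed beyond sampling noise, so none was counted as a duplicate.

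Genes were named by rule: the 10 highest and 10 lowest clean called genes that were not near absent in 1 set of files, averaged 5 CPM or more across the 10 libraries and had groups that do not overlap, and up to 3 such members of each list. The members and lists were chosen with earlier results of these data known. ATF4, ATF5, CARHSP1, EIF2AK3, EGF, HNF4A, TRIB3, CHAC1, ERN1, CEBPG, STC2, DDIT3, IARS1, EPRS1, CBS, PHGDH, MT1E, SLC30A1, FOS, EGR1, FOSL2, SPRY1, SPRED1, HBEGF, EPHA2, NUAK2, MYOF, TEAD1, LATS2, EDN1, NFKBIA, BIRC3, NFKB1, IL11, CXCL3, INHBE, GDF15, SLCO2A1, HPGD, CLDN4, PDLIM7, ANXA3, ANXA5, ANXA13, KRT8, KRT18, KRT80, VIL1, FGF19, MVD, MSMO1, ULK2, CDKN1B, SAT1 and UPP1 fall outside that rule and were chosen after their values were seen. Some genes that the rule or the lists hold are not reported here.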

Additional observations from a re-analysis of the deposited data

Results flagged for a closer look

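Of 348 sets of 5 values (a gene or a library measure in 1 group), 17 held a library whose distance to its nearest neighbour exceeded Dixon's 95% critical value of 0.71 of the whole range. Chance marks about 1 in 20 such sets. In library 1 of the 1:10000 group KLHDC7B was lowest at 5.15 CPM (next 10.7) and TARS1 highest at 447 CPM (next 396). In library 2 of that group FASN was lowest at 344 CPM (next 358), ANXA3 lowest at 451 CPM (next 485), SLC30A1 lowest at 96.6 CPM (next 124), CXCL3 highest at 5.7 CPM (next 4.12) and mitochondrial ribosomal RNA highest at 3.833% of counts (next 3.286%). Library 3 of the same group had the highest MAGI3 at 25.7 CPM (next 21.6), and library 4 the highest SPTLC3 at 7.17 CPM (next 5.17). Among the controls, library 1 had the highest share of counts in clean genes at 29.7% (next 29.31%). Control library 2 had the highest PLA2G2A at 10.7 CPM (next 7.59) and PHGDH at 254 CPM (next 227), and control library 3 the highest MAGI3 at 39.9 CPM (next 36.3) and EIF2AK3 at 73.9 CPM (next 62.2). Control library 4 held the only control count of MT1E, at 0.068 CPM with the others at 0. Control library 5 had the highest ATF3 at 8.27 CPM (next 5.99) and MT1F at 3.23 CPM (next 2.06). MAGI3 was thus highest in library 3 of both groups.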

How the results depend on the processing

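The number of clean genes called against control, 3030, lay between 2945 and 3028 without each library in turn, and 2728 of the 3030 were called every time. It was 3117 with the replicate number as a replicate block (1501 higher, 1616 lower), 3007 with DESeq2, 2962 with limma-voom and 2676 at an adjusted p under 0.01. Alternatives chosen after seeing the data gave 2578 with only libraries 1 and 2 of each group, 2972 with only libraries 3 to 5 and 3130 with a term for the split. Over all genes tested, 9344 calls became 9058 to 9385 without each library, and the 2616 clean calls between the dilutions 2468 to 2612. All counts of calls over clean or all genes stayed within 1.5 times their value in every alternative run. No named gene that was called against control changed direction. Over all 3030 clean calls, 3002 kept the same sign in both libraries 1 and 2 alone and libraries 3 to 5 alone. Of genes not called, ATF5 stood at -0.04 with only libraries 3 to 5 and at -0.01 to 0.09 without each library (below 0 without control library 1), HPGD at -0.03 with only libraries 3 to 5 and at -0.03 to 0.12 without each library (below 0 without control library 2), and NFKB1 at -0.05 with only libraries 1 and 2. The call of MANF was lost in 12 alternatives, at -0.15 to -0.32, and that of PSMA4 with only libraries 1 and 2, at -0.14. The calls of EGF (-0.91, only libraries 3 to 5), EGR1 (0.92) and PDLIM7 (0.26, both only libraries 1 and 2) were lost, and SLC30A1 was called lower with only libraries 3 to 5 (-0.19) and without control library 2 (-0.20). FOSL2 lost its call in 10 alternatives. Counts of list members called moved by over 1.5 times in 121 of the values recomputed, by at most 3 members, and 2029 did not. Such shifts gave 1 ERK feedback gene lower and 1 mitosis gene higher with only libraries 1 and 2, and 4 mitosis genes lower and 1 growth arrest gene lower with only libraries 3 to 5. Same-numbered control and 1:10000 libraries correlated at -0.0503 to 0.0579 in their deviations from group means, and those of the 2 dilutions at 0.0464 to 0.281, with 1 pair under 0.1, so the numbers were not used as pairs. With the block, 2793 clean genes were called between the dilutions. Without the deepest and the shallowest 1:40000 library, 3144 clean genes were called against control and 2583 between the dilutions. Genes with a few counts in a group, such as KLHDC7B and MT1E in the controls, are limited by depth.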
